A study of Rattus norvegicus with 6 samples.

Results

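The matrix metalloproteinases Mmp2, Mmp3, Mmp9 and Mmp14 and the tissue inhibitors Timp1, Timp2 and Timp3 were followed in the tibialis anterior muscle of rats after delayed nerve repair. They were taken as all probe sets that the platform annotation ties to 1 of these 7 symbols alone, with dim ones kept. They are 7 of 10411 genes named on the array, with 13 of its 15923 probe sets, 6 for metalloproteinases and 7 for inhibitors. Tissue came from 3 male Wistar rats, 8 weeks old. Their peroneal nerve was cut and its end joined to the biceps femoris muscle, and after 4 weeks the stumps of the nerve were joined to each other. The rats then lived for 8 weeks, a span read here as following the repair. RNA of the operated (ipsilateral) and the opposite (contralateral) muscle of each animal was measured, which gave 6 libraries, 3 per group, from animals numbered 4, 5 and 6. All 6 libraries are from operated animals, so the contralateral muscle belongs to a rat with a nerve injury in the other leg.

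Matrix metalloproteinases are zinc enzymes that are made as inactive precursors and cut collagens, laminins and other matrix proteins. Tissue inhibitors of metalloproteinases bind the active site and block it. Mmp2 and Mmp9, the gelatinases, degrade gelatin and collagen of the basement membrane around muscle fibres. Mmp3, stromelysin-1, cuts a wide range of matrix proteins and can activate other precursors. Mmp14 sits in the cell membrane and, together with Timp2, activates pro-Mmp2 at the cell surface. Timp1 is an inducible soluble inhibitor, and Timp3 is bound to the matrix.

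The RefSeq promoter table (GRCr8) held 4 of the 7 genes, namely Mmp3, Timp1, Timp2 and Timp3. The 250 bases before the start site are shown for Mmp3, an inducible protease that was dim in every library, and for Timp1 and Timp3. Timp1 on its only probe set and Timp3 on the 2 brightest of its 4 had differences of the same sign in all animals. Each sequence runs 5′ to 3′ on the gene's strand. Capitals mark matches on either strand to TGAGTCA (the site of the factor AP-1), TGAGTAA (a variant of it), GGGCGG (the GC box) or TATAAA (the TATA box). No 2 of the matches overlap.
Mmp3, chr8:12925031-12925280, plus strand: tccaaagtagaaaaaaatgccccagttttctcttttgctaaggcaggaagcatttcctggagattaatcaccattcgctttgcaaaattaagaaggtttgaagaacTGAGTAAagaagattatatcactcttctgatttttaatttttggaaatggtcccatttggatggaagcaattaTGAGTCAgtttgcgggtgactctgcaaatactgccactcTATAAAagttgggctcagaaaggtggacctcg
Timp1, chrX:3771123-3771372, minus strand: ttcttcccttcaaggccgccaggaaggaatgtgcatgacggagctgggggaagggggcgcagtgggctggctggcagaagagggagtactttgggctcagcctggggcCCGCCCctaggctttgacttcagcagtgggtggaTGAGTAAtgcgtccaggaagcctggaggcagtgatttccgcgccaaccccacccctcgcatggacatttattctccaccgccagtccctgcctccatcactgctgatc
Timp3, chr7:19459559-19459808, minus strand: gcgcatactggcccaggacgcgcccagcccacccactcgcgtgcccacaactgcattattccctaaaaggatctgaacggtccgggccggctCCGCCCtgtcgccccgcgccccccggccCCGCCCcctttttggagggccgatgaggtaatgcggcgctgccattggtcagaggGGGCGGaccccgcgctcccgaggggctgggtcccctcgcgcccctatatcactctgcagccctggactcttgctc

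Mmp3 had the AP-1 letters from 71 bases before the start, the variant from 144 bases before it and the TATA box from 32 bases before it. Timp1 had the variant from 108 bases before the start and 1 GC box, in reverse, from 142 bases before it. Timp3 had 3 GC boxes, from 158, 130 and 75 bases before the start, and Timp2, not shown, had 1. The GC content of this window was 38.8% for Mmp3, 61.2% for Timp1, 72.0% for Timp2 and 69.6% for Timp3, against a median of 51.2% over 33469 promoters. Among all those windows, 4.05% held TGAGTCA, 2.38% TGAGTAA, 30.5% GGGCGG and 12.9% TATAAA, each on either strand. These matches describe letters in a window and are not measured binding sites.

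The comparison asked how the levels of these proteases and inhibitors in the operated muscle differed from the opposite muscle of the same animal. Among probe sets bright enough to be tested, those of Timp3 and Timp1 had the largest mean differences. Timp3 was higher ipsilaterally in all 3 animals by its 2 brightest probe sets, about 1.27-fold and 1.23-fold. Its dimmer tested probe set (1372926_at) was lower in animal 6, and the untested one (1368989_at) was lower on average. Timp1 was lower in all 3, at 0.834 of the contralateral level. Timp2, Mmp2 and Mmp14 had mean differences close to 0, with signs that varied between animals for Timp2 and Mmp14. The bright probe set of Mmp2 was, like those of Timp3, higher in all 3 animals. Of all tested probe sets, 12.3% were higher and 15.1% lower in all 3 animals, so such signs are not particular to the inhibitors. Mmp3 and Mmp9 were dim in both muscles. None of these differences passed the adjusted threshold of 0.05, so they describe 3 animals and are not calls.

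Values are intensities on a linear scale, and a difference is log2 of ipsilateral over contralateral intensity after adding a pseudocount of 15.8, which understates differences of dim probe sets. Standard errors (SE) and 95% intervals come from limma over 3 pairs. Probe sets entered the test when their mean over the 6 libraries lay above an intensity of about 42.4, which 8 of the 13 did. These 8 stand for 5 genes, since every probe set of Mmp3 and Mmp9 lay below. In limma's paired fit 0 of 9519 probe sets passed, so percent called was 0%, and 0 of the 8 members passed, with adjusted p of 0.776 to 0.966. At an unadjusted p under 0.05, 6.36% of all tested probe sets and 0 of the 8 members were found. An exact permutation test of 3 pairs cannot go below 0.25, and was not used.

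**Figure D1:**
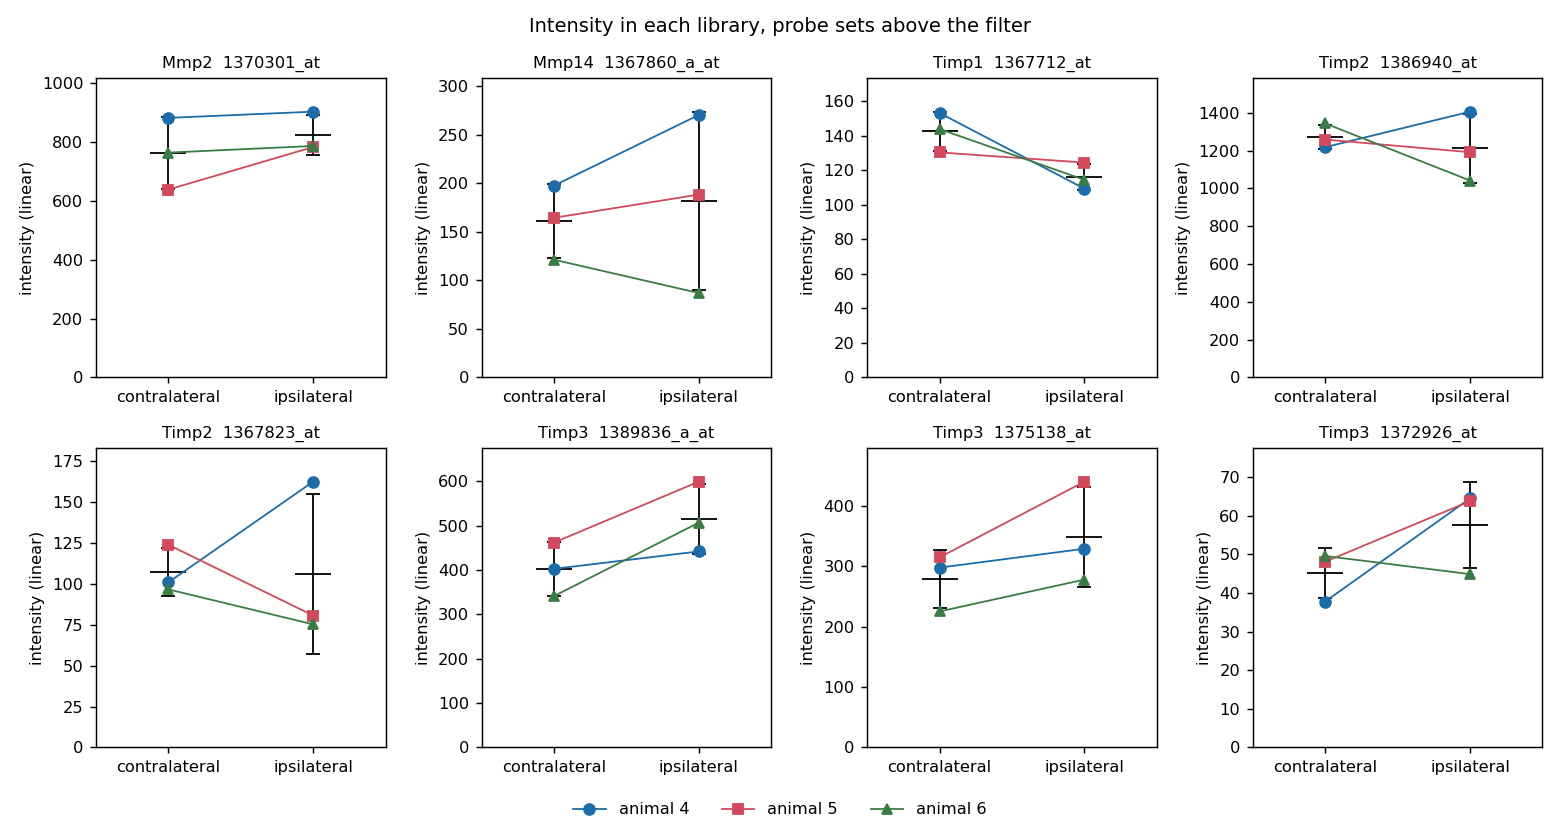
Linear intensity of the 8 tested probe sets in the contralateral and ipsilateral muscle, with a line for each animal and black bars for mean ± SD of 3 libraries. The ipsilateral values of Timp1, 109 to 124, all lie below the contralateral ones, 130 to 153, while in every other panel the groups overlap.

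Mmp2, the gelatinase that is activated at the cell surface, was measured by a bright and a dim probe set. On the bright one (1370301_at) animals 4, 5 and 6 had contralateral intensities of 881, 638 and 763. Their ipsilateral intensities were 902, 782 and 786. Each ipsilateral muscle was above its partner, by 1.02-fold, 1.23-fold and 1.03-fold, but the groups overlapped because the contralateral muscles differed among themselves. Group means were 760.4 ± 122 and 823 ± 68.3 (SD, n = 3), and the mean log2 difference was 0.12 (SE 0.14, adjusted p = 0.909 in limma). Its 95% interval, 0.868-fold to 1.36-fold, bounds the difference that these pairs allow. The mean was 0.037 without animal 5. It was 0.26 in an unpaired fit without contralateral 4 and ipsilateral 6, which had high 3'-to-middle ratios of the actin controls. Differences between animals enter that unpaired fit. The dim probe set of Mmp2 (1369825_at) had 36.7, 46.6 and 40.8 contralaterally and 42.3, 50.0 and 34.3 ipsilaterally, with a difference below 0 in animal 6 alone.

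Mmp14, the membrane-bound activator of Mmp2, had 1 probe set (1367860_a_at) and the wider spread of the 2 tested metalloproteinases. Animals 4, 5 and 6 had 197, 164 and 121 contralaterally and 270.1, 188 and 86.9 ipsilaterally. The order of the animals was the same in both muscles, with animal 4 highest and animal 6 lowest. The ipsilateral muscle was 1.37-fold and 1.15-fold above its partner in animals 4 and 5 and at 0.717 of it in animal 6. The mean log2 difference was 0.062 (SE 0.19, adjusted p = 0.966 in limma), with -0.12 when animal 4 was left out, 0.0038 when animal 5 was and 0.30 when animal 6 was. The within-animal differences spanned 0.84 on the log2 scale, against a median span of 0.48 over all tested probe sets.

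Mmp9, a gelatinase that is abundant in neutrophils and macrophages, lay below the limit for testing on both of its probe sets. The brighter one (1369166_at) had 22.0, 27.1 and 5.5 contralaterally and 20.5, 16.1 and 25.4 ipsilaterally for animals 4, 5 and 6. The linear ratio of 4.62 in animal 6 stands against that very low contralateral value, and the ratios in the other animals were 0.932 and 0.594. The other probe set (1398275_at) ranged from 1.3 to 2.6 over all 6 libraries. Of the 12 values of Mmp9, the 6 of the dimmer probe set and 1 of the brighter lay below the pseudocount of 15.8, and no order between the muscles was read from them.

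Mmp3, stromelysin-1, was likewise too dim to be tested, with 17.9, 30.6 and 26.5 contralaterally and 27.5, 15.4 and 28.7 ipsilaterally (1368657_at). Its ratio was 1.54, 0.503 and 1.08 for animals 4, 5 and 6. The groups overlapped and the animals differed in sign. In the fit without the limit on dim probe sets its log2 difference was -0.046 (SE 0.22).

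**Figure D2:**
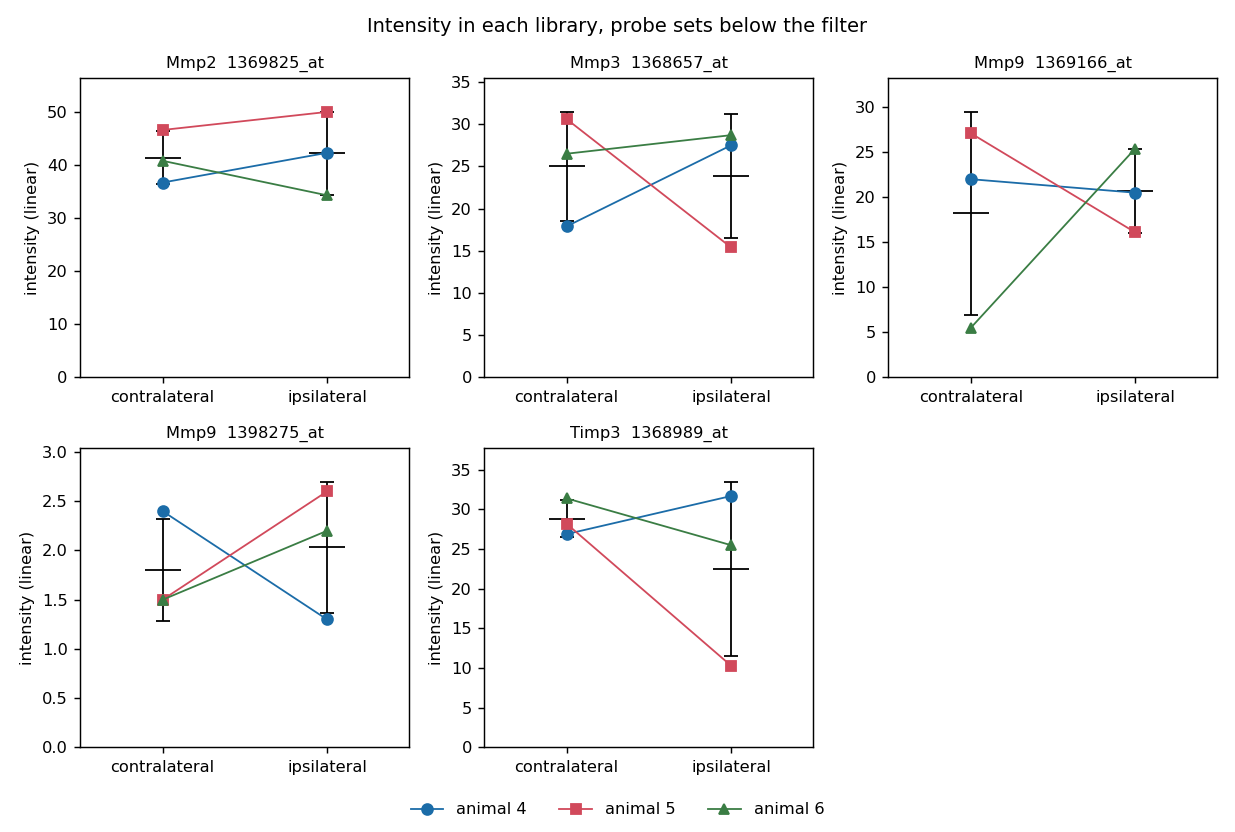
Linear intensity of the 5 probe sets below the limit for testing, with a line for each animal and black bars for mean ± SD of 3 libraries. The 2 probe sets of Mmp9 and the 1 of Mmp3 stay at or below 30.6 in every library, and the lines of the animals run in different directions in all 5 panels.

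Timp1, the inducible soluble inhibitor, had 1 probe set (1367712_at), and it was the only member whose groups did not overlap. Contralateral intensities were 153, 130.3 and 144 for animals 4, 5 and 6. Ipsilateral intensities were 109, 124 and 114, so every operated muscle lay below every opposite one. The gap was narrow, with 124 as the highest ipsilateral and 130.3 as the lowest contralateral value, both from animal 5. Means were 142 ± 11.5 and 116 ± 7.68 (SD, n = 3). The log2 differences were -0.43, -0.059 and -0.29, with a mean of -0.26 (SE 0.15, adjusted p = 0.803 in limma). The interval ran from 0.656-fold to 1.06-fold. Lower values in all 3 animals were found in 15.1% of all tested probe sets, and groups that did not overlap in that direction in 5.78%, so neither feature is rare in these data. For groups that did not overlap with higher ipsilateral values the share was 4.74%, and no member was among them.

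Timp2, which both inhibits Mmp2 and helps Mmp14 to activate it, had 2 tested probe sets. The bright one (1386940_at) had 1218, 1258 and 1343 contralaterally and 1406, 1191 and 1041 ipsilaterally for animals 4, 5 and 6. The 3 contralateral muscles lay close together, whereas the ipsilateral ones lay on both sides of them. Means were 1273 ± 64.0 and 1213 ± 183 (SD, n = 3), and the mean log2 difference was -0.079 (SE 0.15, adjusted p = 0.946 in limma), with an interval of 0.747-fold to 1.20-fold. The dimmer probe set (1367823_at) had 101, 124 and 96.7 contralaterally and 163, 80.7 and 75.3 ipsilaterally. It showed the same signs, above its partner in animal 4 (log2 difference 0.61) and below it in animals 5 (-0.53) and 6 (-0.30). Its mean difference was -0.076 (SE 0.22), and it became 0.15 without animal 5 and 0.038 without animal 6. That of the bright probe set became 0.063 without animal 6. The span of 1.15 between animals on this dimmer probe set was the widest among the tested members.

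Timp3, the inhibitor held in the matrix, had 4 probe sets, of which 3 were tested. On the brightest (1389836_a_at) animals 4, 5 and 6 had 403, 462 and 341 contralaterally and 442, 599 and 507 ipsilaterally. The operated muscle exceeded its partner by 1.10-fold, 1.30-fold and 1.49-fold, and the groups overlapped only because ipsilateral 4 lay below contralateral 5. Means were 402 ± 60.3 and 516 ± 79.0 (SD, n = 3), with a mean log2 difference of 0.35 (SE 0.16, adjusted p = 0.776 in limma) and an interval of 0.999-fold to 1.62-fold.

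The next probe set of Timp3 (1375138_at) had 298, 315 and 225 contralaterally and 329, 439.9 and 278 ipsilaterally. It was again higher in all 3 animals, by 1.11-fold, 1.40-fold and 1.23-fold. Its mean difference was 0.30 (SE 0.15, adjusted p = 0.777 in limma), with an interval of 0.967-fold to 1.56-fold. The third (1372926_at), close to the limit for testing, had 37.8, 48.1 and 49.6 contralaterally and 64.5, 63.8 and 44.9 ipsilaterally. Its mean difference was 0.26 (SE 0.19), with -0.11 in animal 6, and it was 0.10 without animal 4 and 0.45 without animal 6. Its lowest library was contralateral 4. The fourth (1368989_at) was too dim to be tested, with 26.9, 28.2 and 31.4 contralaterally and 31.7, 10.3 and 25.5 ipsilaterally, and its mean of -0.26 (SE 0.22) had the opposite sign. The probe sets of Timp3 thus differ in sign between the bright and the dimmest, and share the gene, the arrays and the animals, so they are not separate tests.

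Of the 8 tested members, 3 were higher in all 3 animals, where 12.3% of all tested probe sets were. A further 1 was lower in all 3, where 15.1% of all tested probe sets were. The 3 higher ones are the bright probe sets of Mmp2 and Timp3, of which 2 belong to the same gene. The other 4 tested members and all 5 dim ones differed in sign between animals. The median difference of the 8 was 0.092, against -0.016 over all tested probe sets. By the brightest tested probe set of each gene, the pair of metalloproteinases had medians of 0.23, 0.23 and -0.19 for animals 4, 5 and 6. The 3 inhibitors had 0.13, -0.059 and -0.29. Both medians were above 0 in animal 4 and below 0 in animal 6. Single genes went the other way, with Mmp2 at 0.041 and Timp3 at 0.55 in animal 6 and Timp1 at -0.43 in animal 4.

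**Figure D3:**
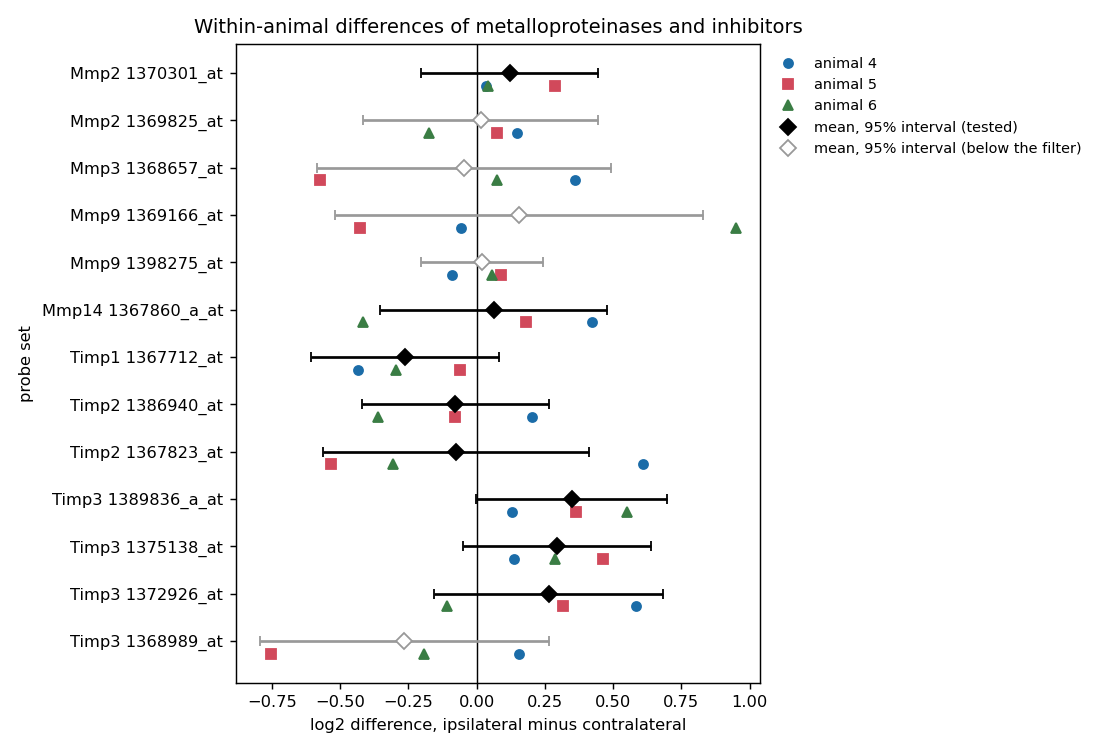
Log2 difference of ipsilateral minus contralateral intensity (after the pseudocount of 15.8) for the 13 probe sets, with the value of each animal and the mean with its 95% interval from limma. All 13 intervals include 0, and the animals lie on 1 side of 0 for the brightest probe set of Mmp2, for Timp1 and for the 2 brightest of Timp3.

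Some libraries stood apart in ways that touch these values. The beta-actin controls, which read RNA quality along a transcript, gave a 3'-to-middle ratio of 2.77 for contralateral 4 and 2.87 for ipsilateral 6. The other 4 libraries had 1.36 to 1.68. The actin 3' and 5' intensities were 2142 and 1387 in contralateral 4, 2674 and 1746 in contralateral 6 and 2023 and 983 in ipsilateral 6. GAPDH 3' and middle controls had 6271 and 5473 in contralateral 4 and 5968 and 5072 in contralateral 6. By those pairs of controls contralateral 4 did not stand apart. Mmp14 and Timp2 on both probe sets were at their lowest in ipsilateral 6, while Timp1 was at its highest in contralateral 4. The part of RNA quality in these values was not tested. In a fit without those 2 libraries and without the pairing, Timp1 differed by -0.21 and Mmp14 by 0.62. The 2 brightest probe sets of Timp3 differed by 0.36 and 0.49, and adjusted p was at least 0.982 in limma. That fit sets ipsilateral 4 and 5 against contralateral 5 and 6, so differences between animals enter it. It cannot tell those apart from RNA quality. Transcripts of spermatids, which muscle lacks, had a higher summed intensity in the ipsilateral muscle of each pair, from 294 to 1039 in animal 4, 87.4 to 179 in animal 5 and 118.5 to 447 in animal 6. The 3 tested, Prm1, Tnp1 and Odf1, were higher in all 3 animals, with a median difference of 1.31, and their part in the members' values was not tested. Without animal 4, 241 of 9519 probe sets (2.53%) passed in limma, and none of the 8 members was among them. Their lowest adjusted p there was 0.161, for the brightest probe set of Timp3. Median array intensities ran from 60.2 to 66.6. The control AFFX-CreX-5_at had 439 in contralateral 4 and 669 in ipsilateral 4, and 1502 to 2240 in the other libraries. On another cre control, AFFX-r2-P1-cre-5_at, ipsilateral 4 was lowest at 2029. There contralateral 4, at 3339, lay above contralateral 5, at 3257. The part of this in the members' values was not tested.

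Markers of other cell types also differed between the muscles. The tissue label was borne out by muscle markers such as Ckm, creatine kinase, at 7326 ± 812 contralaterally and 6166 ± 432 ipsilaterally. The 8 muscle markers had a median difference of -0.23, with 1 higher and 3 lower in all 3 animals. Muscle sums were 40092 to 48209 contralaterally and 35921 to 40620 ipsilaterally. Myh7 had the largest difference of the 8, 1.71, and Myh4 differed by -0.92. Fibroblasts, a known source of Mmp2, Mmp14 and the inhibitors, were followed with 10 markers. Their summed intensity was 5070 to 5940 in contralateral and 6348 to 7575 in ipsilateral muscle, and the median difference of the 9 tested was 0.39. It was 0.029, 0.48 and 0.41 for animals 4, 5 and 6. Of the 9, 5 lay above their partner in every animal and 2 below it, namely Dcn, decorin (-0.21), and Fap (-0.13). S100a4 had 481 contralaterally and 2774 ipsilaterally in animal 5, whose ipsilateral sum was the highest. In animal 4 it had 839 and 815, so its signs were mixed. The gap between the summed intensities of the 2 groups depends on this marker. Of 10 macrophage markers, 8 were on the array, with a summed intensity of 3882 to 4172 contralaterally and 2729 to 3804 ipsilaterally, and the median of the 7 tested was -0.29, with 4 of 7 lower in all 3 animals. Of 9 neutrophil markers 4 were on the array, and none was bright enough to be tested, with sums of 74.3 to 107 and 84.7 to 121. Of 6 adipocyte markers 5 were on the array, with sums of 1087 to 1699 contralaterally and 1551 to 2463 ipsilaterally. The 3 tested, Cfd (0.79), Fabp4 (0.52) and Scd (0.51), were all higher in all 3 animals. The 5 tested endothelial markers had a median of 0.18, with 2 higher in all 3 animals and sums of 689.8 to 775 and 766 to 1063. The 3 tested Schwann cell markers had a median of 0.30, with 2 higher and 1 lower in all 3 animals and sums of 717 to 824 and 909 to 972. The 4 tested smooth muscle markers had a median of -0.15, with sums of 598 to 906 and 631 to 777. None of the tested markers in these lists passed the adjusted threshold, and no marker in any of the lists was at 0 in any library. In such bulk RNA, fewer cells of a type and less RNA per cell cannot be told apart, and the part of cell makeup in the values of Timp1 and Timp3 was not tested.

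Other genes of matrix turnover were set beside the members. Of 13 further metalloproteinases 10 were on the array and 3 were bright enough, with differences of 0.17 (SE 0.16) for Mmp24, -0.14 (SE 0.15) for Mmp23 and 0.0020 (SE 0.17) for Mmp17. Mmp7, Mmp8, Mmp10, Mmp11, Mmp12, Mmp13 and Mmp16 lay below the limit for testing. Mmp13, a collagenase, had 11.7 ± 5.21 contralaterally and 11.9 ± 5.04 ipsilaterally, and Mmp12, the macrophage elastase, had 29.0 ± 7.76 and 28.3 ± 18.6. None of the 3 tested passed, in either direction.

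Of 8 genes in a list of other protease inhibitors and related proteins, 4 were tested and 0 passed. Cst3, the cysteine protease inhibitor cystatin C, was higher in all 3 animals, with 2079 ± 283 and 2557 ± 354 and a difference of 0.30 (SE 0.12). Reck, a membrane-anchored inhibitor of metalloproteinases, differed by -0.083 (SE 0.15) and Serpine2, protease nexin-1, by 0.063 (SE 0.15).

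Genes that activate metalloproteinases or clear their complexes gave 8 tested of 15, with 0 passing and a median of 0.13. Furin, which cuts the precursor of Mmp14, differed by -0.099 (SE 0.15), with 99.9 ± 4.40 and 92.4 ± 8.03. Pcsk6, another proprotein convertase, had the largest difference among the 8 tested, -0.55 (SE 0.24), with 0.22 in animal 4 and -1.16 in animal 5. The uptake receptor Lrp1 differed by 0.16 (SE 0.17) and the hyaluronan receptor Cd44 by 0.17 (SE 0.19). Among 11 ADAM and ADAMTS proteases 5 were tested and 0 passed, and Adam15, Adamts1 and Adam10 differed by -0.18 (SE 0.16), 0.17 (SE 0.17) and -0.12 (SE 0.19).

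Substrates of these enzymes included the largest differences among the related genes. Of 17 interstitial matrix genes 16 were tested and 0 passed, 4 were higher in all 3 animals and 1 was lower, and the median was 0.025. Eln, elastin, had 80.4 ± 20.3 and 132.9 ± 26.3, a difference of 0.63 (SE 0.16, adjusted p = 0.472 in limma). The proteoglycans Bgn, biglycan, and Lum, lumican, differed by 0.76 (SE 0.21) and 0.39 (SE 0.16). In the other direction Fn1, fibronectin, differed by -0.41 (SE 0.21), with 0.24 in animal 4 and -0.99 in animal 5. Of 15 basement membrane genes 14 were tested and 0 passed, with 3 higher in all 3 animals and a median of 0.017. Nid1, nidogen-1, had 607 ± 142 and 835 ± 240.4, a difference of 0.44 (SE 0.14), and Col4a2, a chain of collagen IV, differed by 0.36 (SE 0.16). Lama2, the laminin chain of the muscle fibre's sheath, differed by 0.32 (SE 0.19), with -0.17 in animal 6.

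Of 21 cytokines and transcription factors that can induce these genes 12 were tested and 0 passed, and the median was -0.035. Egr1, an early response factor, had 181 ± 34.1 contralaterally and 122 ± 10.2 ipsilaterally, and it was lower in all 3 animals, by -0.51 (SE 0.15, adjusted p = 0.545 in limma). Fos, a subunit of AP-1, was lower in all 3 as well, with 149 ± 11.9 and 109 ± 12.5 and a difference of -0.41 (SE 0.15). Among the other tested AP-1 subunits Jun differed by -0.11 (SE 0.15), with mixed signs between animals. Junb, at 0.25 (SE 0.16), and Fosl1, at 0.21 (SE 0.17), went the other way and were higher in all 3 animals. Ets1 was higher in all 3 animals, by 0.38 (SE 0.15). A link between the AP-1 variant in the Timp1 window shown above and the values of Timp1 or of any AP-1 subunit was not tested.

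**Figure D4:**
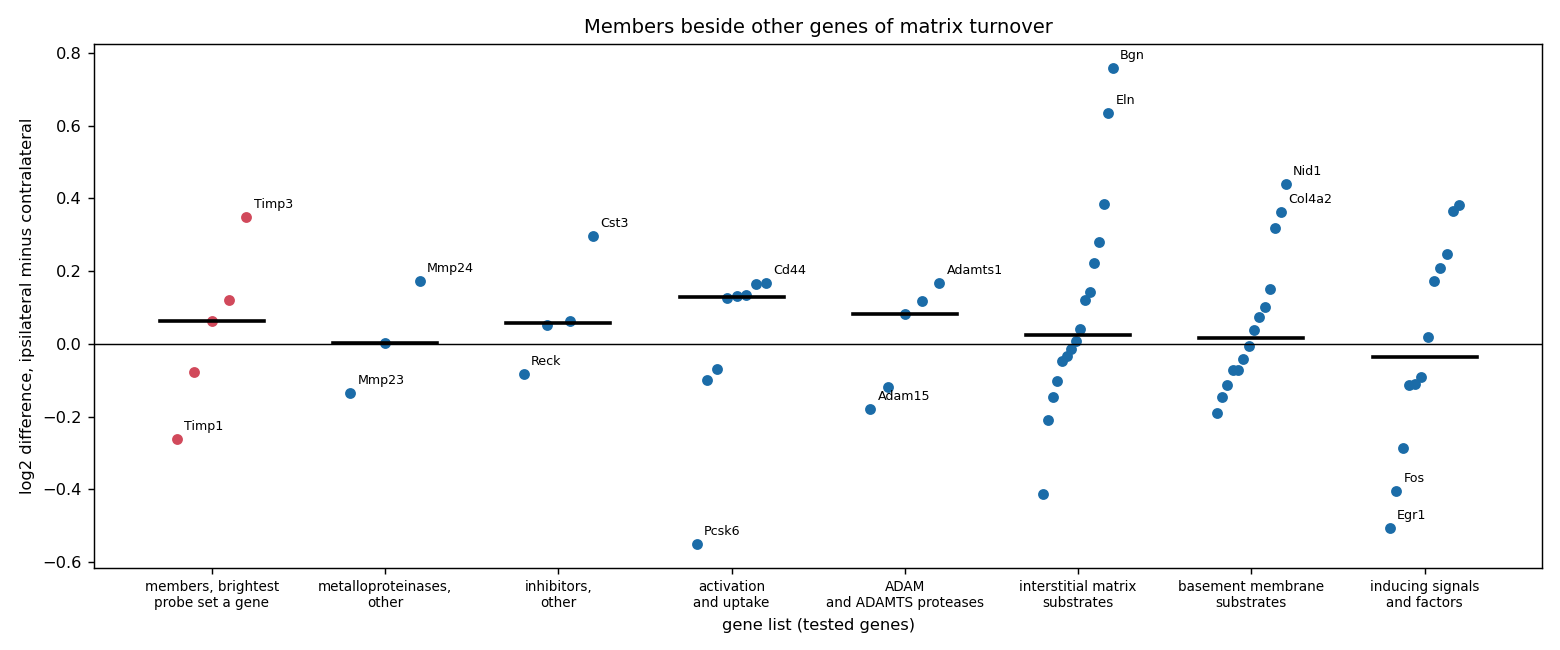
Log2 difference of ipsilateral minus contralateral intensity for tested genes, each by its brightest probe set, as 1 point per gene in the 5 members tested and in 7 lists of related genes, with a black line for the list's median. The members span -0.26 for Timp1 to 0.35 for Timp3, and the points farthest from 0 are Bgn at 0.76, Eln at 0.63, Pcsk6 at -0.55 and Egr1 at -0.51.

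The genes most like each member over the 6 libraries were taken by Pearson's r of log2 values among 7116 other named genes. The libraries share 3 animals, and the highest of so many values was taken for each member, so these are descriptions with no test. For Mmp2 they were Sgk1 (r = 0.999) and Sub1 (0.984), and for Mmp14 Ube2f (0.991) and Psmd13 (0.990). For Timp1 they were Smyd5 (0.992) and Parp1 (0.972), for Timp2 Polr2j (0.991) and Chst12 (0.987), and for Timp3 Ndrg4 (0.992) and Armcx4 (0.980). Sgk1, a serum- and glucocorticoid-induced kinase, had 248 ± 69.3 contralaterally and 282 ± 38.7 ipsilaterally. Smyd5 had 96.4 ± 10.7 and 75.5 ± 6.53, a difference of -0.30.
Among the brightest probe sets of the 5 tested members, r over the libraries was 0.67 for Mmp14 with Timp2, 0.41 for Mmp2 with Mmp14 and 0.16 for Mmp2 with Timp2. It was -0.54 for Timp2 with Timp3 and -0.56 for Timp1 with Timp3. Probe sets of a single gene gave 0.80 for the pair of Timp2 and 0.85 for the 2 brightest of Timp3.

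**Figure D5:**
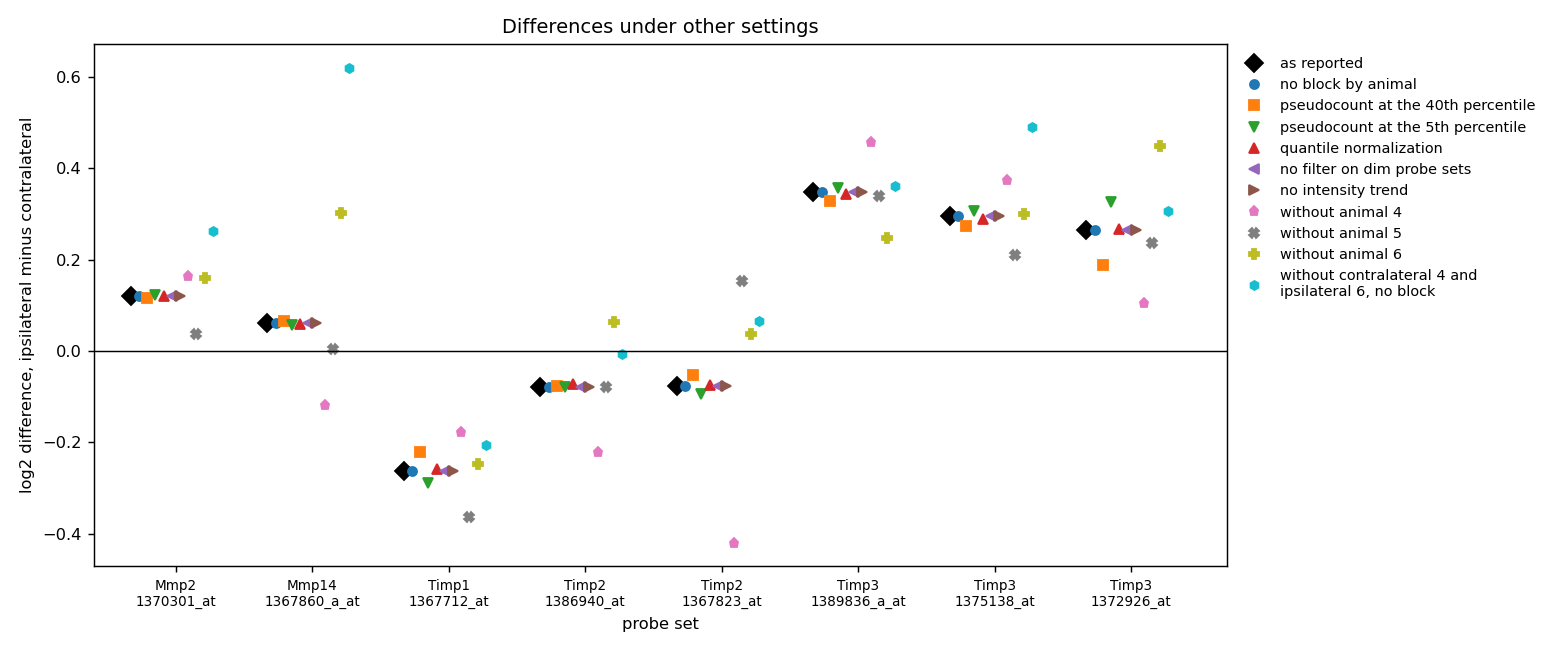
Log2 difference of ipsilateral minus contralateral intensity of the 8 tested probe sets as reported (black diamonds) and under 10 other settings, which change the pairing, pseudocount, normalization, limit on dim probe sets, variance model or libraries used. Timp1 stays below 0 and the 3 probe sets of Timp3 above 0 in all of them. Mmp14 and both probe sets of Timp2 cross 0 when an animal is left out. Changing only the pairing, the limit or the variance model cannot move a difference, so those points match the diamonds by construction.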

How the data were processed

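The deposited values are linear intensities, 1 per probe set and array, and their mean, after 2% was trimmed from each end, was about 150.05 on every array. How the authors made them from the scans is not stated in the labels. Left out were 57 controls among the 15923 probe sets. The platform annotation, which can be old, gave 1 symbol for 12789, several for 312 and none for 2822, and 12754 were found in the GRCr8 gene table. Groups and animals come from the titles, where Cont was read as contralateral.

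Values were used as log2(intensity + 15.8), the 20th percentile, without further normalization because array medians lay within 0.117 on that scale. Probe sets with a mean above the 40th percentile were tested with limma 3.58.1 in R 4.3.3 (intensity trend, animal as a fixed block, Benjamini-Hochberg adjustment over 9519). The fit had 2 residual and 7.47 prior degrees of freedom. It was tested on simulated data. The animals pair the samples by design. Deviations from group means correlated at -0.04, 0.07 and 0.13 in animals 4, 5 and 6. Members and gene lists were chosen with earlier results of these data known. Named genes were all members, up to 3 genes per pathway list with the smallest p, and the 2 most alike per tested member. Furin, Fn1, Jun, Junb, Fosl1, Mmp12, Mmp13 and the markers were added. For a gene with several probe sets, lists used the brightest. The number of arrays limits the precision. Alternatives covered the block, pseudocount, normalization, filter, variance trend and each animal. Python 3.11.15 with matplotlib 3.10.9 made the figures.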

Additional observations from a re-analysis of the deposited data

How the results depend on the processing

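In limma's paired fit 0 of 9519 probe sets passed, with 605 at an unadjusted p under 0.05. The count was 0 without the replicate block by animal (564 at an unadjusted p under 0.05), with either other pseudocount, with quantile normalization, without the limit on dim probe sets and without the variance trend. Leaving out 1 animal gave 0 to 241, the 241 without animal 4, in a fit with 1 residual degree of freedom. The cause was not tested. Without contralateral 4 and ipsilateral 6 and without the block, chosen after seeing the data, 1 passed, and the cause was not tested. For the 8 tested members 80 alternative values were computed. Of these, 75 kept their sign and stayed above the threshold of 0.05, with a lowest adjusted p of 0.161. Leaving out only the block, the limit on dim probe sets or the variance trend cannot change a difference in this balanced design. The signs under those settings were fixed in advance, and only the SE and p could move. The 5 that turned were Mmp14 without animal 4 (-0.12), the bright probe set of Timp2 without animal 6 (0.063), and its dimmer one without animal 5 (0.15), without animal 6 (0.038) and without contralateral 4 and ipsilateral 6 (0.065). With 1 animal left out, these ran from -0.12 to 0.30 for Mmp14, from -0.22 to 0.063 for the bright and from -0.42 to 0.15 for the dimmer probe set of Timp2, and the cause was not tested. The fit without the block by animal could turn none of them. The 5 dim members were fitted once, without the limit. Their intensities, between 1.3 and 50.0, set the limit of what can be read from them.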

Other observations

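Among the related genes below the limit for testing, Tnf and S100a8 were picked out after their values were seen. Each had the same sign in all 3 animals, as did others below the limit, such as Cspg4 and Tnc. All 3 ipsilateral values of Tnf and all 3 contralateral values of S100a8 lay below the pseudocount of 15.8, which limits what can be read from them. Tnf, tumour necrosis factor, had an intensity of 17.6 ± 10.3 contralaterally and 5.93 ± 1.55 ipsilaterally. S100a8, a calcium-binding protein of neutrophils, had 4.97 ± 3.76 and 16.5 ± 3.16, while the other 3 neutrophil markers on the array had mixed signs, namely S100a9 (28.3 and 26.2), Lcn2 (35.9 and 33.5) and Cxcr2 (24.7 and 25.1). Without the limit, 11.6% of all probe sets were higher and 13.8% lower in all 3 animals. In the fit without the limit Tnf and S100a8 did not pass, with adjusted p of 0.879 for both in limma.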
